A study of Rattus norvegicus with 48 samples.

Results

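Trim63 (ENSRNOG00000016543), which encodes the muscle RING-finger protein MuRF1, and Fbxo32 (ENSRNOG00000006738), which encodes the F-box protein atrogin-1, were followed through all 48 libraries of a rat study of muscle disuse. They were picked by identifier, as the muscle ubiquitin ligases known as atrogenes, and are 2 of the 31998 genes in the table and 2 of the 16960 that passed the filter on low counts. RNA was sequenced from the plantaris and the soleus of 24 rats, all female. They came from 2 selected lines, with 12 rats each, bred for a low (LRT) or a high (HRT) response to endurance training. In each line 6 rats had a hindlimb cast for 3 days (hindlimb immobilization, HI) and 6 other rats had no cast (CTRL), so that muscle, line and treatment gave 8 groups of 6 libraries. The comparisons addressed whether the lines, which adapt differently to training, also respond differently to disuse. All rats came from generation 19, were 14 months old, had completed treadmill training earlier in life and, by the study's methods, received puromycin before the muscles were taken. The CTRL values come from separate animals, not from the uncast limb of the HI rats, and the cast held the foot in plantar-flexion. The library totals ran from 26.8 M to 36.4 M counts, with group medians between 28.9 M and 31.8 M, and RNA integrity numbers (RIN) ran from 7.8 to 8.6 in the labels, lower for some libraries than the study's methods state. Levels are given as CPM, the counts of a gene relative to the TMM-scaled total of its library. The markers of fast fibres that could be measured (3 of 8) summed to 4804 CPM or more in every plantaris library and to 1481 or less in every soleus library, as the muscle labels say.

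Ubiquitin ligases of the E3 class choose the proteins that receive a ubiquitin chain and are then degraded by the proteasome. MuRF1 binds sarcomeric proteins such as myosin heavy chain and works as a RING-type ligase on its own, while atrogin-1 is the substrate receptor of a cullin-type complex. Transcription of both genes is known to increase in muscle after unloading, denervation, fasting and glucocorticoid treatment, and FoxO transcription factors are known activators of both.

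The proximal promoter is shown because these factors are known to act there. Of the 2 genes, 1 had a window in the RefSeq promoter table (assembly GRCr8): the 250 bases before the start of Trim63, at chr5:151816986-151817235 on the plus strand. Capitals mark the motifs that were searched on both strands, namely the FoxO core GTAAACA, the E-box CANNTG, the glucocorticoid receptor hexamer AGAACA and the TATA box TATAAA.
Trim63 promoter: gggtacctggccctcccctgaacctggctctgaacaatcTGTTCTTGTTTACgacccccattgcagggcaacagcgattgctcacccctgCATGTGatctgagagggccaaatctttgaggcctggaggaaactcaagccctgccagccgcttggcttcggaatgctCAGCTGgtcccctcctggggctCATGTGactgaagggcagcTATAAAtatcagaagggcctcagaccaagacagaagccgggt
The FoxO core lies on the minus strand at positions -205 to -199 from the start site, and 3.21% of the 33469 promoter windows in the table hold one in the same 250 bases. A glucocorticoid receptor hexamer, also on the minus strand, fills positions -211 to -206 and so directly adjoins the FoxO core without overlap. That hexamer alone occurs in 17.5% of windows, and the 2 motifs joined in this order occur in 1 window of the 33469, that of Trim63, a pattern that was looked for after the sequence had been seen. E-boxes start at -160, -83 and -61 (65.5% of windows hold at least 1), and a TATA box starts at -42 (12.9% of windows). No 2 of these motifs overlap. A match of letters is a description and shows no binding.

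In plantaris of the LRT line both genes rose after HI. Trim63 in CTRL had a lowest, median and highest level of 205.9, 231.0 and 271.5 CPM, and in HI of 396.0, 1067 and 2689 CPM. Fbxo32 had 115.1, 188.1 and 394.6 CPM in CTRL and 530.9, 1224 and 1723 CPM in HI. Each HI library lay above each CTRL library for both genes. The highest HI library was 6.79 times the lowest for Trim63 (1.32 times in CTRL) and 3.25 times for Fbxo32 (3.43 times in CTRL). The log2 fold change of Trim63 was 2.60 (standard error 0.37, adjusted p = 4.85e-06), a 6.07-fold rise, with edgeR's quasi-likelihood test on 8 groups and RIN and Benjamini-Hochberg adjustment over all genes tested. That of Fbxo32 was 2.51 (standard error 0.34, adjusted p = 2.99e-06), a 5.69-fold rise. By p-value the genes ranked 40 and 24 of the 16960, in a comparison in which 28.7% of all genes passed an adjusted p of 0.05 and 4.69% had all HI libraries above all CTRL libraries. With library totals in place of TMM, the median of all genes was 0.25 instead of 0.01, the share of calls that were higher 84.7% instead of 52.7%, and the values of Trim63 and Fbxo32 were 2.89 and 2.77. In whole muscle, a change in the cells that hold a transcript and a change in the RNA per cell cannot be told apart.

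In HRT plantaris both genes rose too, Trim63 by 3.08-fold and Fbxo32 by 2.99-fold. Trim63 had a lowest, median and highest level of 176.0, 199.8 and 220.7 CPM in CTRL and of 308.2, 359.9 and 1843 CPM in HI. For Fbxo32 the values were 143.8, 265.7 and 297.0 CPM in CTRL and 343.7, 613.0 and 1443 CPM in HI. The groups again did not overlap for either gene, and HI replicate 4 held the highest level of both, far above the next library (512.0 CPM) for Trim63. The log2 fold changes were 1.62 for Trim63 (standard error 0.37, adjusted p = 0.00478) and 1.58 for Fbxo32 (standard error 0.34, adjusted p = 0.00295). Here 11.0% of all genes passed the test and 3.27% had all HI libraries above all CTRL libraries. The count of genes that passed, 1859, fell to 933 without HI replicate 4, to 1072 without HI replicate 1 and to 1086 without CTRL replicate 6. Without HI replicate 4 the Trim63 value fell to 0.92 and missed the threshold (adjusted p = 0.052), although the remaining 5 HI libraries all stayed above CTRL, and that of Fbxo32 was 1.30 (adjusted p = 0.0175).

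**Figure D1:**
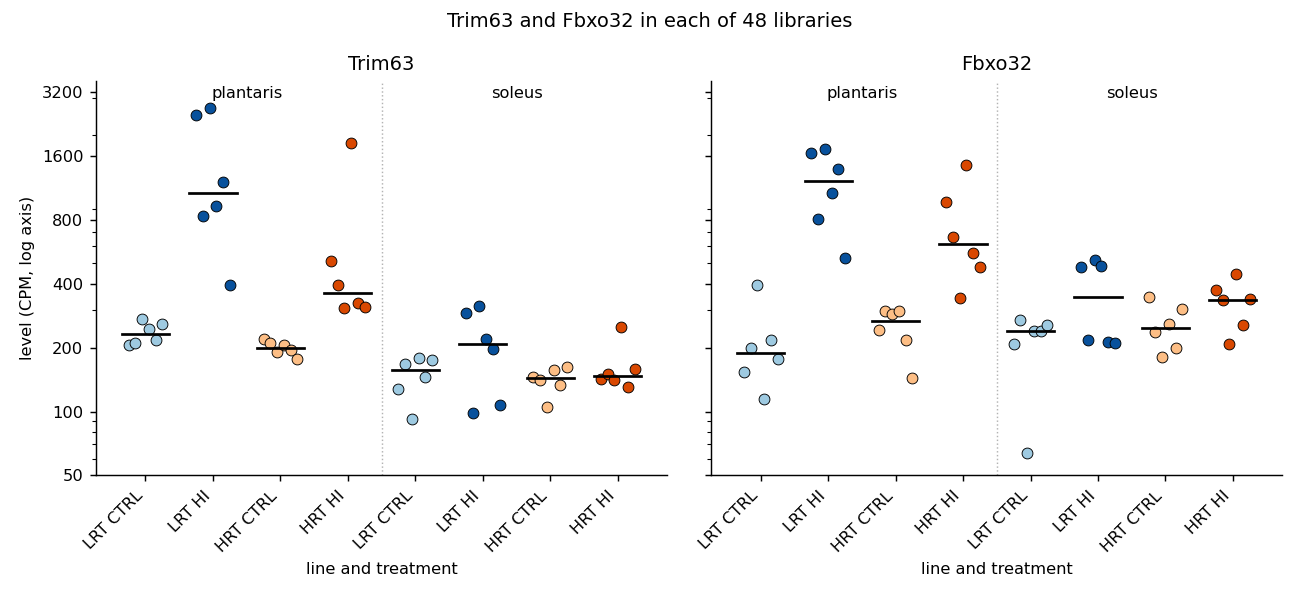
Level of Trim63 (left) and Fbxo32 (right) in each of the 48 libraries (CPM, log axis), by muscle, line and treatment, with a bar at each group's median. In plantaris every HI library lies above every CTRL library of its line for both genes, and in soleus the HI and CTRL ranges overlap.

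Summed levels of fibre and cell markers are given beside these values, since some moved with them. Fast-fibre markers (Atp2a1, Mylpf and Pvalb, 3 of 8 with an identifier) had a median sum of 8318 CPM in LRT HI plantaris against 15464 in CTRL, and of 8983 against 11191 in HRT, but of the 3 genes only Mylpf passed, in LRT (-1.22, adjusted p = 0.0167), and none did in HRT (adjusted p from 0.335 to 0.853). They summed to 5474 CPM in HRT HI replicate 4 against 8786 to 10375 CPM in the other 5 HRT HI plantaris libraries. In LRT HI plantaris they summed to 4804 and 5139 CPM in replicates 1 and 3, the libraries with the highest Trim63 and Fbxo32, against 8112 to 10593 CPM in the other 4. Fibroblast markers (5 of 7) had a median sum of 268.1 CPM in LRT HI plantaris against 763.8 in CTRL, and of 352.2 against 916.3 in HRT, and 5 and 3 of the 5 genes fell (28.7% and 11.0% of all genes passed in either direction). In LRT HI replicate 6, the lowest library for both Trim63 and Fbxo32, they summed to 748.8 CPM against 209.9 to 387.1 in the other 5, and in HRT HI replicate 4 to 210.6 against 305.3 to 663.2. Red blood cell markers (6 of 6) summed to 432 CPM in HRT HI plantaris replicate 4 and to between 241.9 and 3078 CPM over its group. For slow fibres (2 of 7 markers) the median sum in plantaris was 105.9 CPM in LRT HI (335.0 in replicate 6, 68.4 to 250.2 in the others) against 377.8 in CTRL, and 198.7 against 408.1 in HRT, and both genes passed in LRT and neither in HRT (adjusted p = 0.0551 and 0.0837), while none of the macrophage (0 of 6) and endothelial (0 of 4) markers had an identifier. The part of these shifts in the levels of Trim63 and Fbxo32 was not tested.

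In soleus neither gene passed the test in either line. Trim63 ran from 92.3 to 178.2 CPM in LRT CTRL (median 156.7) and from 98.5 to 313.5 CPM in LRT HI (median 208.6), and 4 of 6 HI libraries lay above all CTRL libraries. Its log2 fold change was 0.47 (standard error 0.36, adjusted p = 0.406), with an approximate 95% interval (1.96 standard errors) from -0.23 to 1.17. Fbxo32 ran from 64.0 to 269.6 CPM in LRT CTRL (median 239.5) and from 210.6 to 516.2 CPM in LRT HI (median 347.9). The LRT HI libraries of Fbxo32 formed 2 sets, with replicates 1, 3 and 4 at 478.2 to 516.2 CPM and replicates 2, 5 and 6 at 210.6 to 217.7 CPM, the latter inside the CTRL range. Slow-fibre markers summed to 301.4 to 442.1 CPM in replicates 1, 3 and 4 and to 1023 to 1833 CPM in replicates 2, 5 and 6, and fibroblast markers to 178.6 to 283.6 and to 455.8 to 990.2 CPM. Red blood cell markers stood at 993.6 to 1449 CPM in the former and at 489.5 to 904.2 CPM in the latter, and the part of these markers in the split was not tested. For Fbxo32 the log2 fold change was 0.74 with a standard error of 0.33 (adjusted p = 0.131, 95% interval from 0.09 to 1.39). In HRT the Trim63 range was 105.2 to 161.5 CPM in CTRL (median 143.2) and 131.0 to 249.6 CPM in HI (median 146.4), with replicate 4 alone above the CTRL range, and the log2 fold change was 0.21 (standard error 0.36, adjusted p = 0.745). Fbxo32 ran from 179.7 to 346.5 CPM in HRT CTRL (median 247.3) and from 207.3 to 444.8 CPM in HRT HI (median 335.8), and its log2 fold change was 0.36 (standard error 0.33, adjusted p = 0.484). Other genes did pass there, 13.9% of genes in LRT soleus and 16.2% in HRT soleus, where all 6 red blood cell markers rose. Their sums in HRT HI soleus were 224.3, 398.7, 760.5, 1552, 1558 and, in replicate 5, 10598 CPM, against 163.5 to 611.4 CPM in CTRL, so that 1 library stood far above the rest and 2 lay within the CTRL range. Of the fast-fibre markers, Pvalb rose in LRT soleus (3.23, adjusted p = 0.000196), while Mylpf and Atp2a1 did not pass (adjusted p = 0.416 and 0.731). In HRT soleus none of them passed (adjusted p from 0.0656 to 0.444). The part of these shifts in the levels of Trim63 and Fbxo32 in soleus was not tested.

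The difference between the muscles was itself tested, as the plantaris response minus the soleus response within a line. In LRT it was 2.13 for Trim63 (standard error 0.51, adjusted p = 0.0242) and 1.77 for Fbxo32 (standard error 0.47, adjusted p = 0.0376), and 2.18% of all genes passed. In HRT it was 1.42 for Trim63 (standard error 0.53, adjusted p = 0.25) and 1.22 for Fbxo32 (standard error 0.49, adjusted p = 0.276), where 0.0943% of genes, or 16, passed, and without HRT HI plantaris replicate 4 the HRT values were 0.76 and 0.95. With 1 library left out the number of genes passing ran from 38 (without plantaris HI replicate 1) to 897 (without plantaris HI replicate 6) in LRT, against 370, and from 1 (among others without plantaris CTRL replicate 3) to 27 (among others without soleus CTRL replicate 2) in HRT. Both muscles of a line and treatment came from the same 6 rats, which the edgeR fit did not model. The muscles of a number may come from 1 rat. With the number taken as the rat, a random block in limma-voom gave LRT values of 1.93 (adjusted p = 0.00384) and 1.74 (adjusted p = 0.0119). DESeq2 gave adjusted p = 0.00331 and 0.00904. In edgeR without a block the LRT calls were close to the threshold. There the Trim63 call was lost without plantaris HI replicate 1 (1.87, adjusted p = 0.0813), plantaris HI replicate 3 (1.82, adjusted p = 0.0833) or soleus CTRL replicate 6 (2.04, adjusted p = 0.0509). For Fbxo32 it was lost on leaving out any 1 of 14 of the 24 libraries, namely plantaris HI replicates 1 and 3, every plantaris CTRL replicate but 3, soleus HI replicates 2, 5 and 6 and soleus CTRL replicates 2, 4, 5 and 6, with values between 1.60 and 1.75. The fast-fibre marker Pvalb had a muscle difference of -4.27 in LRT (edgeR, adjusted p = 0.00294), while Mylpf and Atp2a1 did not pass (adjusted p = 0.539 and 0.575). Its part in the values above was not tested.

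Line differences were tested within each muscle and treatment. In plantaris HI, Trim63 averaged 1424 ± 944.4 CPM in LRT and 615.4 ± 606.4 CPM in HRT (SD, n = 6), and 2 of 6 LRT libraries (replicates 1 and 3) lay above all HRT libraries. The log2 difference, LRT minus HRT, was 1.21 (standard error 0.36) and just missed the threshold (adjusted p = 0.0559), in a comparison in which 2.42% of genes, or 410, passed. With 1 library left out, between 92 genes (without LRT HI replicate 1) and 1586 genes (without HRT HI replicate 4) passed. Trim63 passed without HRT HI replicate 4 (1.93, adjusted p = 0.000175) and without LRT HI replicates 6, 2 or 4 (1.43, 1.32 and 1.32, adjusted p = 0.0103, 0.0386 and 0.0444), and also under DESeq2, limma-voom and a fit without RIN. In edgeR it did not pass with library totals (adjusted p = 0.0945) or with plantaris fitted alone (adjusted p = 0.148). The exact permutation test on log2 CPM missed as well (p = 0.0519, adjusted 0.0779). Fbxo32 averaged 1194 ± 476.8 CPM in LRT HI plantaris and 743.7 ± 402.8 CPM in HRT (SD, n = 6), a log2 difference of 0.69 (standard error 0.33, adjusted p = 0.251). The ranges of the lines overlapped for both genes.

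In plantaris CTRL, Trim63 averaged 234.6 ± 27.2 CPM in LRT and 199.7 ± 15.9 CPM in HRT (SD, n = 6), and 3 of 6 LRT libraries lay above all HRT libraries. edgeR gave a log2 difference of 0.23 (standard error 0.35, adjusted p = 0.876), with 0.525% of genes passing (89, and 32 to 99 with 1 library left out, the fewest without LRT replicate 3). The exact permutation test on log2 CPM, added after the values were seen, gave p = 0.0281. That was 0.0482 after adjustment over 12 comparisons of the gene and not over all genes, so it cannot be set beside edgeR's adjusted p. In edgeR, Fbxo32 had a log2 difference of -0.24 there (standard error 0.32, adjusted p = 0.854), in the other direction. In soleus the differences were 0.07 for Trim63 and -0.25 for Fbxo32 in CTRL (adjusted p = 0.954 and 0.764, 1.45% of genes passing), and 0.34 and 0.12 in HI (adjusted p = 0.587 and 0.857, 12.2% of genes passing).

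The response to HI was 0.98 log2 units larger in LRT than in HRT plantaris for Trim63 (standard error 0.50, adjusted p = 0.811, 95% interval from -0.001 to 1.96). For Fbxo32 it was 0.93 larger (standard error 0.46, adjusted p = 0.799, 95% interval from 0.03 to 1.83). Both intervals are approximate, at 1.96 standard errors on each side, and are narrower than edgeR's test implies. The unadjusted edgeR p was 0.0567 for Trim63 and 0.0501 for Fbxo32, so neither was under 0.05. No gene passed this contrast in edgeR (0% of those tested), 1060 genes had an unadjusted p under 0.05, and DESeq2 and limma-voom called 0 and 1 gene. By unadjusted p the genes ranked 1185 and 1063. Without HRT HI replicate 4 the plantaris differences were 1.69 (adjusted p = 0.125) and 1.22 (adjusted p = 0.272), while at the other end they were 0.70 for Trim63 without LRT HI replicate 3 and 0.78 for Fbxo32 without HRT HI replicate 3 (adjusted p = 0.992 and 0.958). In soleus the differences between the lines' responses were 0.26 for Trim63 (adjusted p = 0.908) and 0.37 for Fbxo32 (adjusted p = 0.838), and 5 genes (0.0295%) passed.

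**Figure D2:**
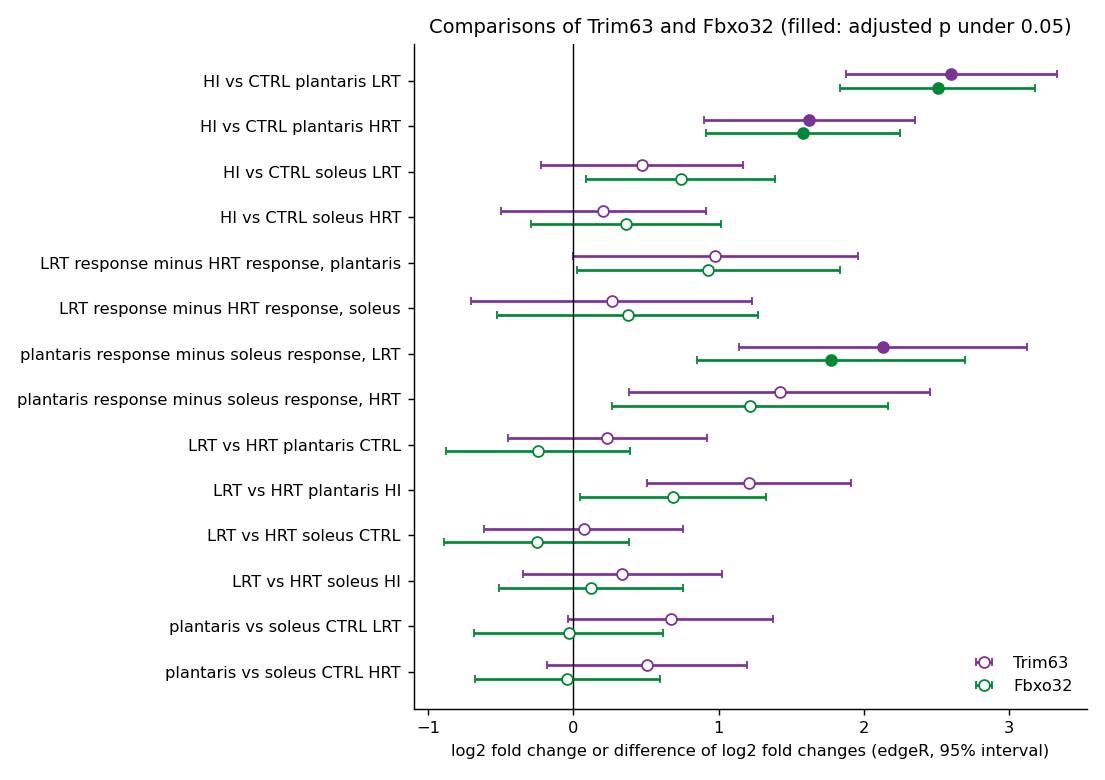
Log2 fold changes of Trim63 and Fbxo32, or differences between them, for the 14 comparisons tested with edgeR. Bars are approximate 95% intervals (1.96 standard errors), and points are filled at an adjusted p under 0.05. Both genes passed for HI against CTRL in plantaris of each line and for the plantaris response minus the soleus response in LRT, and in no other comparison shown.

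**Figure D3:**
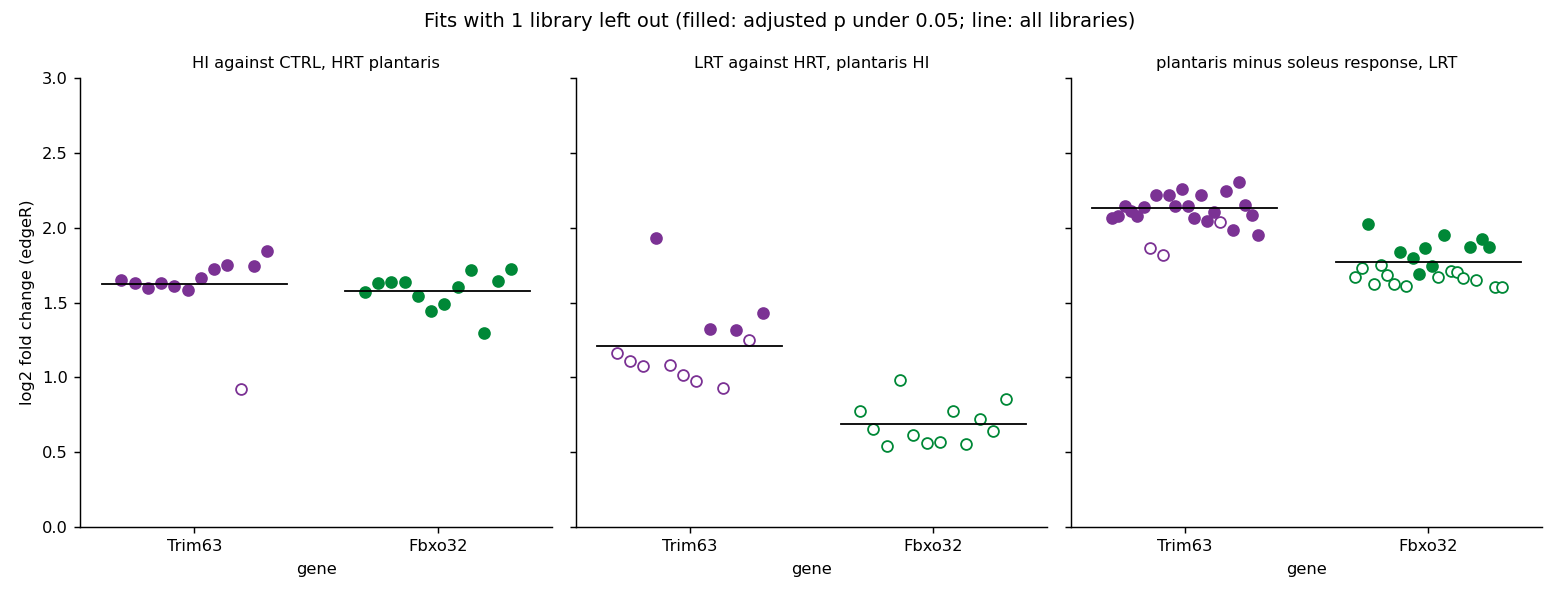
Log2 fold change with 1 library left out at a time (1 point each, filled at an adjusted p under 0.05) for 3 comparisons, with a line at the value from all libraries. Leaving out HRT HI replicate 4 lowers the Trim63 response in HRT plantaris from 1.62 to 0.92 and raises the difference between the lines in plantaris HI from 1.21 to 1.93.

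The muscles were also compared directly. In CTRL rats every plantaris library had more Trim63 than every soleus library of its line (205.9 CPM or more against 178.2 or less in LRT, and 176.0 or more against 161.5 or less in HRT). All plantaris libraries lay above all soleus libraries for 12.6% of genes in LRT and 13.2% in HRT. The edgeR log2 difference, plantaris minus soleus, was 0.67 in LRT (standard error 0.36, adjusted p = 0.158) and 0.51 in HRT (standard error 0.35, adjusted p = 0.267), where 32.6% and 38.8% of genes passed. An exact permutation test on log2 CPM, added after the values were seen, gave p = 0.00216 in each line. That is the smallest that 6 against 6 libraries can give, and was 0.00432 after adjustment over 12 comparisons. That test takes the libraries as independent, although both muscles of a line and treatment came from the same 6 rats. Same-numbered libraries may be those that share a rat. With the muscles paired by number, an exact sign-flip test gave p = 0.0313 in each line, not adjusted and the smallest that 6 pairs can give. With the rat as a random block, limma-voom called the LRT difference (0.68, adjusted p = 0.0426) and not that in HRT (0.51, adjusted p = 0.113). Fbxo32 in CTRL did not show such a gap, with log2 differences of -0.03 in LRT (standard error 0.33, adjusted p = 0.956) and -0.04 in HRT (standard error 0.33, adjusted p = 0.933).

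The HI libraries of the muscles were compared in the same way, and the widening of the gap itself, tested above, passed in LRT and not in HRT. Trim63 was 396.0 CPM or more in LRT plantaris and 313.5 or less in LRT soleus, a mean log2 difference of 2.64, and 308.2 or more against 249.6 or less in HRT, a difference of 1.59. Fbxo32 was also without overlap in LRT (530.9 or more against 516.2 or less, a difference of 1.77), whereas in HRT 5 of 6 plantaris libraries lay above all soleus libraries (difference 1.07). The exact permutation p was 0.00216 for each of these except Fbxo32 in HRT, where it was 0.00866. With the muscles paired by number, the exact sign-flip test gave p = 0.0313 for each gene in each line, not adjusted. That is the smallest that 6 pairs can give, reached because plantaris was higher in all 6 pairs each time. All plantaris libraries exceeded all soleus libraries for 6.58% of genes in LRT HI and 9.03% in HRT HI.

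Ordered by mean, Trim63 was lowest in soleus HRT CTRL (140.5 ± 20.1 CPM), followed by soleus LRT CTRL (147.6 ± 33.1), soleus HRT HI (162.1 ± 43.8), plantaris HRT CTRL (199.7 ± 15.9), soleus LRT HI (204.5 ± 89.6) and plantaris LRT CTRL (234.6 ± 27.2), and then by plantaris HRT HI (615.4 ± 606.4) and plantaris LRT HI (1424 ± 944.4, all SD, n = 6). The order of Fbxo32 began with the CTRL groups, plantaris LRT (209.2 ± 97.5 CPM), soleus LRT (212.8 ± 75.7), plantaris HRT (247.3 ± 60.5) and soleus HRT (254.2 ± 63.4), and went on with HI in soleus HRT (325.2 ± 84.4), soleus LRT (353.0 ± 153.5), plantaris HRT (743.7 ± 402.8) and plantaris LRT (1194 ± 476.8). No neighbours in either order differed by more than the larger of their SDs. The ranges of neighbours overlapped throughout except between plantaris LRT CTRL and plantaris HRT HI for Trim63. Among the CTRL groups both soleus groups lay below both plantaris groups for Trim63, which was not so for Fbxo32.

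The ratio of Trim63 to Fbxo32 counts within a library does not depend on the library's scaling. Its absolute size may still reflect transcript length as well as level, although the counts were scaled for length. Only its differences between groups are therefore read. In plantaris LRT the geometric mean was 1.20 in CTRL and 1.06 in HI, and in plantaris HRT it was 0.83 in CTRL and 0.716 in HI. In soleus it was 0.744 and 0.575 in LRT and 0.562 and 0.501 in HRT. The log2 difference between HI and CTRL was -0.19, -0.21, -0.37 and -0.17 in these 4 settings, and none passed an exact permutation test (p = 0.524, 0.39, 0.173 and 0.29, at least 0.519 after adjustment over 4). With 1 library left out these differences ran from -0.35 (without CTRL replicate 3) to -0.026 (without CTRL replicate 4) in plantaris LRT, from -0.38 (without HI replicate 4) to -0.10 (without CTRL replicate 6) in plantaris HRT, from -0.51 (without HI replicate 5) to -0.18 (without CTRL replicate 3) in soleus LRT and from -0.25 to -0.088 (without HI replicates 3 and 1) in soleus HRT, and none passed (exact permutation, lowest adjusted p = 0.0952). No change in the balance of the genes with HI was detected at these group sizes.

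Coupling between the genes was examined over rats of 1 group. In plantaris LRT HI the log2 levels of Trim63 and Fbxo32 had a Pearson r of 0.962 (exact permutation p = 0.00139, 0.00556 after adjustment over 8 groups) and a Spearman rho of 1.00 (exact permutation p = 0.00278, adjusted 0.0111, n = 6). From highest to lowest, both genes had the replicates in the order 3, 1, 5, 4, 2, 6. In plantaris HRT HI r was 0.885 (exact permutation p = 0.00139, adjusted 0.00556) and rho was again 1.00 (exact permutation p = 0.00278, adjusted 0.0111), with the order 4, 1, 2, 5, 6, 3. Without the 2 libraries farthest from the median of Trim63 the r values were 0.89 and 0.791, each over 4 libraries. Without LRT HI replicate 6 the r of that group was 0.919 and its exact p no longer passed after adjustment (0.0844).

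In plantaris CTRL the coupling did not pass, with r = 0.394 in LRT and 0.683 in HRT (exact permutation p = 0.475 and 0.129). Soleus LRT CTRL had r = 0.919 (exact permutation p = 0.0153, adjusted 0.0407) but rho = 0.771 (exact permutation p = 0.103). That value rested on replicate 3, the lowest library for both genes, and was 0.798 without it (adjusted p = 0.148, exact) and 0.289 without the 2 farthest libraries. Without replicate 1, 2, 5 or 6 its r was at least 0.911, but the adjusted p of the exact test on the remaining 5 libraries was between 0.0667 and 0.147. The other soleus groups had r between 0.704 and 0.84, none of which passed after adjustment (exact permutation, adjusted p from 0.0844 to 0.148), although soleus LRT HI passed without replicate 2 (r = 0.816, exact, adjusted p = 0.0333).

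Taken over the 12 rats of a muscle and treatment, after centring on the line, r was 0.919 in plantaris HI (permutation p = 1e-05, the smallest that 100000 resamples can give, and 4e-05 after adjustment over 4) with rho = 0.993 (permutation p = 1e-05). It was 0.487 in plantaris CTRL (permutation p = 0.153), 0.882 in soleus CTRL (permutation p = 0.0008, adjusted 0.0016, rho 0.776) and 0.806 in soleus HI (permutation p = 0.00532, adjusted 0.00709, rho 0.762). Without the 2 libraries farthest from the median, r was 0.876 in plantaris HI, 0.158 in plantaris CTRL, 0.561 in soleus CTRL and 0.74 in soleus HI. The plantaris CTRL value rested on single libraries of LRT, being 0.195 without replicate 3 and 0.672 (adjusted p = 0.0321) without replicate 4. On the log scale plantaris CTRL also had the narrowest range of Trim63, from 176.0 to 271.5 CPM over both lines. Whether r differs between the settings was not tested. Over the 12 plantaris HI libraries the r with RIN was -0.067 for Trim63 and -0.031 for Fbxo32, and with the log2 library total it was -0.258 and -0.141. In soleus HI the r with the log2 total was larger, at -0.591 and -0.457.

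**Figure D4:**
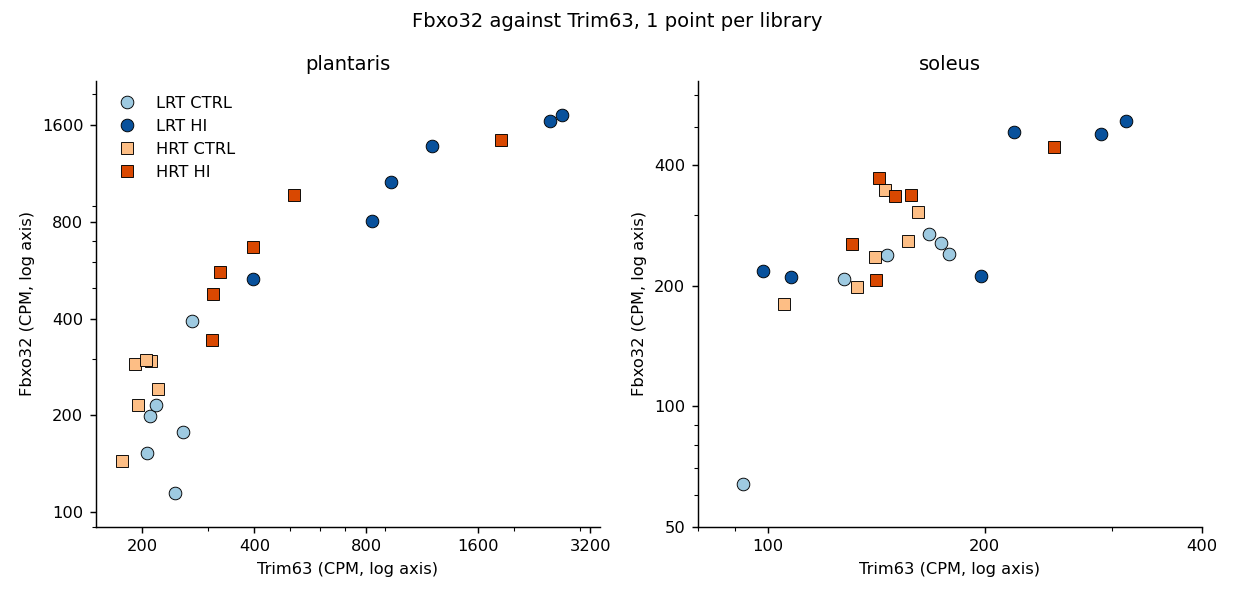
Fbxo32 against Trim63 (both CPM, log axes) in plantaris (left) and soleus (right), with 1 point per library, circles for LRT and squares for HRT. The 12 plantaris HI libraries (dark) follow 1 rising band that runs from 308.2 to 2689 CPM of Trim63, and the CTRL libraries (pale) sit at its lower end with no clear slope in LRT.

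Fbxo32 was not the gene most like Trim63, nor Trim63 the gene most like Fbxo32. Over all 48 libraries the r of log2 CPM between the genes was 0.868, a description that includes the muscle and HI differences, and Fbxo32 ranked 70 of 16959 genes by likeness to Trim63 while Trim63 ranked 7 by likeness to Fbxo32. After centring on the 8 group means r was 0.762, with ranks of 99 and 6. Over the 12 plantaris HI libraries centred on the line, where r was 0.919, the ranks were 323 and 51, so that many other genes followed Trim63 at least as closely there. Among the genes with a symbol, those most like Trim63 were Sat1, a polyamine acetyltransferase (r = 0.934), the lysophospholipase Pnpla7 (0.928), the acyl-CoA synthetase Acsl4 (0.923), the F-box gene Fbxo31 (0.919) and Kctd20 (0.917). Their log2 fold changes for HI in LRT plantaris ran from 1.54 (Kctd20) to 2.38 (Sat1), a rise that their choice largely fixes. After centring they were the transcriptional repressor Tgif1 (0.882), Map1lc3b, which encodes the autophagosome protein LC3 (0.875), the F-box gene Fbxo30 (0.872), the cofilin phosphatase Ssh2 (0.866) and the transcription factor Bach1 (0.858).

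Among the 5 most like Fbxo32 over the 48 libraries were AABR07016559.1 (r = 0.892), the deubiquitinase Fam63a (0.884), Map1lc3b (0.868) and Trim63 itself. After centring they were the liprin Ppfibp2 (0.802), the reductase Cyb5r2 (0.787), the autophagy kinase Ulk1 (0.768), Trim63 and the small Maf factor Mafg (0.759). Symbols exist here only for genes that the study called as changed, which favours such genes in these lists, and r over libraries carries no p.

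The same number marks a plantaris and a soleus library in each group, and if it marks the rat, the genes can be compared between the muscles of 1 animal. Over the 12 HI pairs, centred on the line, Trim63 in plantaris and soleus had r = 0.842 (permutation p = 0.00194, 0.00776 after adjustment over 4, rho 0.769) and Fbxo32 had r = 0.717 (permutation p = 0.0118, adjusted 0.0236, rho 0.685). Without the 2 pairs farthest from the median these were 0.77 and 0.601. Number 4 of HRT HI was highest in both muscles for both genes (Trim63 1843 and 249.6 CPM, Fbxo32 1443 and 444.8 CPM). Number 3 of LRT HI was likewise highest in both muscles for both genes (Trim63 2689 and 313.5 CPM, Fbxo32 1723 and 516.2 CPM). Without number 4 of HRT the Trim63 value was 0.834 and its adjusted p rose to 0.0669, and that of Fbxo32 did not pass without number 3 or 4 of HRT or number 1 or 3 of LRT (r from 0.659 to 0.687).

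In the CTRL pairs the relation did not appear. Trim63 had r = -0.179 (permutation p = 0.659), which was 0.372 without number 3 of LRT, and Fbxo32 had r = -0.697 (permutation p = 0.0502, adjusted 0.0669), which was -0.225 without number 3 of LRT, between -0.684 and -0.730 without any other single pair, and -0.274 without the 2 farthest pairs. That number was the highest of its group in plantaris (271.5 CPM of Trim63 and 394.6 of Fbxo32) and the lowest of its group in soleus (92.3 and 64.0 CPM). Its fast-fibre marker sums were 16676 CPM in plantaris and 1414 CPM in soleus, each on the side of its labelled muscle.

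**Figure D5:**
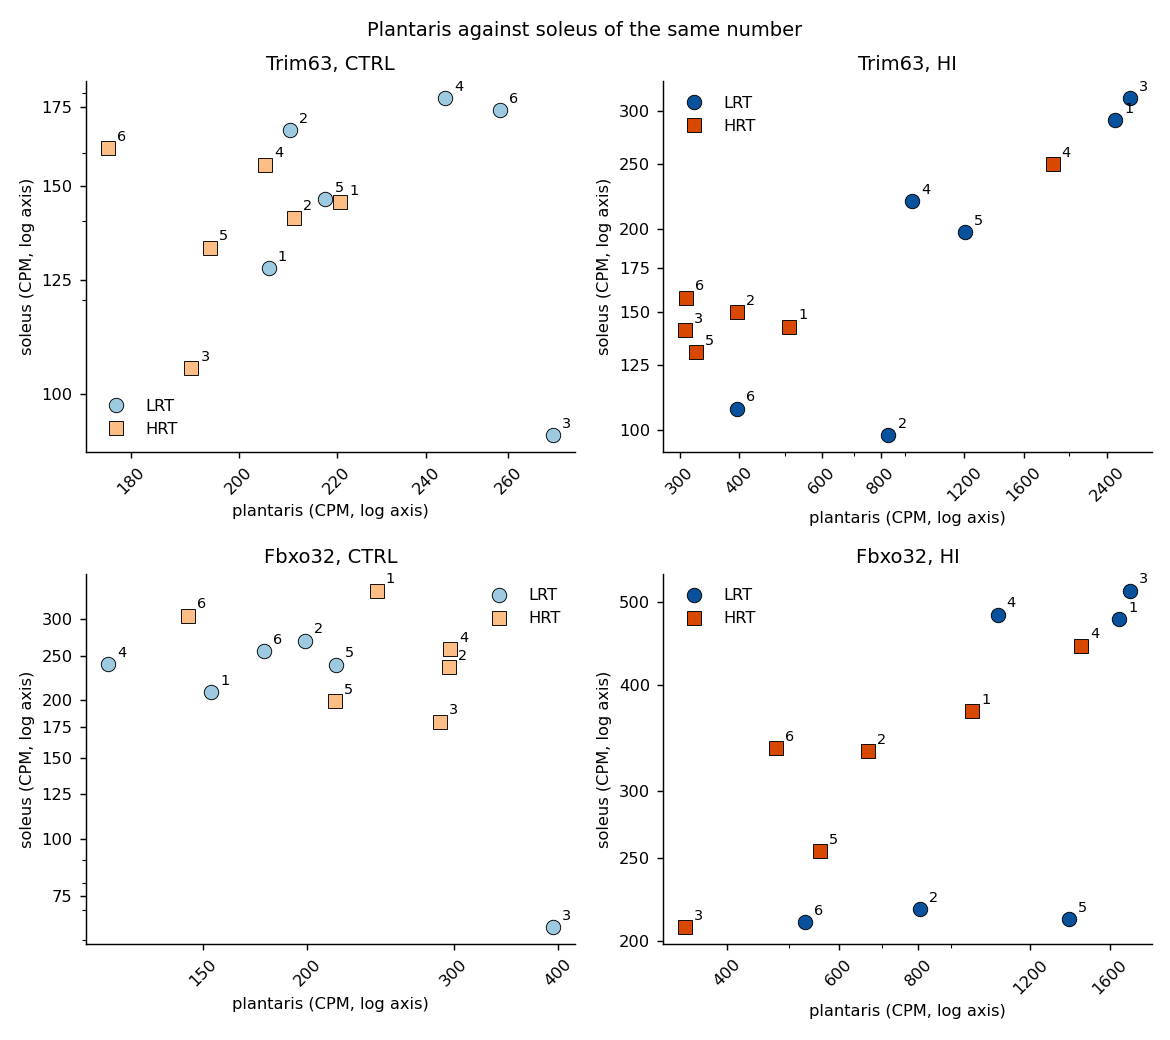
Soleus against plantaris level of Trim63 (top) and Fbxo32 (bottom) for libraries of the same number in CTRL (left) and HI (right), in CPM on log axes, with circles for LRT, squares for HRT and the number beside each point. In HI the levels rise together (r = 0.842 and 0.717 after centring on the line), and in CTRL number 3 of LRT lies alone at the lower right for both genes.

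Other genes of the pathway were read from lists in which an identifier was known for a symbol only if the study had called the gene as changed, so that their counts are not independent evidence of a response. Shares of all genes, here and for the lists below, count both directions. Of those calls, 52.7% in LRT plantaris, 46.6% in HRT plantaris, 52.8% in LRT soleus and 49.1% in HRT soleus were rises. Of 26 further muscle ubiquitin ligases, 11 could be measured. In LRT plantaris 5 rose with HI, 4 fell and 2 did not pass, with a median log2 fold change of 0.46 against 0.01 over all genes, of which 28.7% passed. The Fbxo30 gene, which encodes the F-box protein MUSA1, rose by 1.89 (adjusted p = 2.56e-05), Fbxo31 by 1.60 (adjusted p = 2.29e-07), Rnf207, a RING-finger gene, by 1.40 (adjusted p = 0.0133), and Trim35 and Asb10 fell by 1.18 and 1.30 (adjusted p = 2.23e-06 and 0.000442). The measured ligases did not all move in the same direction. In HRT plantaris 4 rose and 2 fell (11.0% of all genes passed), in LRT soleus 3 rose and 4 fell (13.9%), and in HRT soleus 1 rose and 3 fell (16.2%). The median log2 fold changes of the ligases in these settings were -0.205, -0.245 and -0.406, against 0.018, 0.013 and 0.01 over all genes. Fbxo31 was the 1 ligase that rose in all 4 settings (0.90 in HRT plantaris, 0.70 in LRT soleus and 0.61 in HRT soleus), while Trim63 and Fbxo32 did not pass in soleus.

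Of 43 proteasome and ubiquitin genes 8 could be measured, and all 8 rose in LRT plantaris (median 1.25, with 28.7% of all genes passing), led by Uchl1, a ubiquitin hydrolase (2.92, adjusted p = 4.99e-05), and Psmd8, a subunit of the proteasome cap (1.62, adjusted p = 4.1e-05). In HRT plantaris 4 of the 8 rose (median 0.77, against 11.0% of all genes in either direction). In LRT soleus 1 rose (Psmb3, 0.78, adjusted p = 0.0285, against 13.9%), and in HRT soleus 0 passed in edgeR (against 16.2%). Of 18 FoxO and autophagy genes 10 could be measured. All 10 rose in LRT plantaris (median 1.38) and 8 in HRT plantaris (median 0.98), where 28.7% and 11.0% of all genes passed, among them Foxo1 itself (1.15 and 1.12, adjusted p = 0.000447 and 0.00395), Gadd45a, a stress-response gene (3.29 and 2.08), and the lysosomal protease Ctsl (2.04 and 1.42). In LRT soleus 7 rose (median 0.83, with 13.9% of all genes passing), and in HRT soleus, where 16.2% passed, 3 rose and 1 (Fam134b, a receptor for autophagy of the endoplasmic reticulum) fell. Foxo1 did not pass in soleus (0.14 in LRT and 0.13 in HRT, adjusted p = 0.757 and 0.776).

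Of 12 genes of the response to denervation 6 could be measured, and 4 rose and 1 fell in LRT plantaris (median 1.87, with 28.7% of all genes passing). Runx1, a transcription factor of denervated muscle, rose by 3.15 (adjusted p = 8.2e-05), the histone deacetylase gene Hdac4 by 2.83 (adjusted p = 1.55e-05) and Myog, the myogenic factor myogenin, by 2.62 (adjusted p = 4.38e-05), while Hdac9 fell by 1.79 (adjusted p = 4.92e-06). In HRT plantaris, with 11.0% of all genes passing, Hdac4 and Runx1 rose (2.29 and 1.73) and Hdac9 fell by 0.98. In soleus, with 13.9% (LRT) and 16.2% (HRT) of all genes passing, Hdac4 was the 1 gene of the list that rose, by 2.44 in LRT and 2.02 in HRT. The immediate early gene Nr4a1 fell by 1.67 in LRT soleus (adjusted p = 0.0092), and Myog was at 0.01 and -0.14 (adjusted p = 0.993 and 0.868). Each of these lists had a higher median in LRT than in HRT plantaris, but no listed gene passed the test of the difference between the lines' responses in either muscle.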

How the data were processed

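According to the study's methods and the submitters' processing notes, reads were quantified with Salmon 0.9.1 against the Ensembl cDNA and non-coding RNA of Rnor_6.0, and tximport gave gene totals. What the authors deposited are thus estimated counts, scaled for transcript length and not normalized between libraries, of which 66.0% were not whole. They were rounded here. Totals were 26.8 M to 36.4 M counts per library. The labels and the study's methods differ on the library kit and on the lowest RIN. Groups and RIN were taken from the labels, and the replicates are separate rats. Symbols and identifiers were paired through the study's tables of changed genes, so few list genes could be matched.

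All 31998 genes were filtered (filterByExpr, 16960 kept), scaled by TMM and fitted together in edgeR 4.0.16 with the quasi-likelihood test, 8 groups and RIN, and p-values were adjusted over all genes tested. A call is an adjusted p under 0.05. CPM values are TMM-scaled, and log2 CPM used a prior count of 2. The fit was also run on simulated data, whose results are not given here. Ratios and correlations were tested by permutation over libraries, two-sided (exact with 6 libraries per group, otherwise 100000 resamples within the lines). Alternatives were DESeq2 1.42.0, limma 3.58.1, other scalings, filters, covariates and blocks, and each library left out. The members, lists and motifs were chosen with earlier results of these data known, and the exact permutation tests of single comparisons were added after the values had been seen. Genes named as alike were the 5 with the highest Pearson r and a symbol, over 48 libraries and after centring. Of these, 1 gene is not reported here. List genes named are those with the largest changes in LRT plantaris, others being chosen after their values were seen. No 2 libraries of a group agreed within sampling noise (120 pairs).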

Additional observations from a re-analysis of the deposited data

Results flagged for a closer look

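Trim63 in plantaris HRT HI had a highest library (replicate 4, 1843 CPM) that stood far from the next, at 512.0 CPM, by Dixon's gap test at the 95% level, and in soleus HRT HI the highest library, also replicate 4, stood at 249.6 CPM against 158 for the next. Fbxo32 in plantaris LRT CTRL had its highest library at 394.6 CPM (next 216.3) and in soleus LRT CTRL its lowest at 64.0 CPM (next 208.6), and both carry the number 3. The ratio of Trim63 to Fbxo32 was highest at 1.44 in soleus LRT CTRL replicate 3 (next 0.743) and at 0.931 in soleus LRT HI replicate 5 (next 0.607). These are 6 of 24 sets of 6 libraries examined. Chance gives about 1 in 20 for independent sets of normally distributed values. CPM and ratios were examined with no log and the ratios reuse the same libraries, so that rate may not hold here. The response to HI differed between plantaris and soleus in LRT by the interaction test, by 2.13 log2 units for Trim63 and by 1.77 for Fbxo32 (edgeR, adjusted p = 0.0242 and 0.0376).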

How the results depend on the processing

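Of 296 repeats of the edgeR comparisons under another scaling, filter, tool, covariate or block, 281 kept the direction and the side of the threshold, as did 395 of 432 with 1 library left out. The Trim63 difference between the lines in plantaris HI passed with DESeq2 (1.21, adjusted p = 0.0186), limma-voom (1.29, 0.0381), without RIN (1.21, 0.0476), with the replicate number as a block in edgeR (1.33, 0.0305) and with the rat as a random block in limma-voom (1.29, 0.0251). It missed in edgeR with size factors of DESeq2 (1.21, adjusted p = 0.0559), library totals (1.20, 0.0945) and plantaris fitted alone (1.21, 0.148). It also missed with at least 10 counts in every library (1.19, 0.058), any count (1.20, 0.0745) and by exact permutation (1.29, 0.0779). The muscle difference of the Fbxo32 response in LRT was 1.74 and missed the threshold (adjusted p = 0.0554) when all genes with any count were tested. With library totals in place of TMM the Trim63 line difference in soleus CTRL was -0.042. Exact permutation tests of log2 CPM gave 0.23 for Trim63 between the lines in plantaris CTRL. They gave 0.69 (LRT) and 0.52 (HRT) for Trim63 between the muscles in CTRL. Each of these passed after adjustment over 12 comparisons of the gene and not over all genes. For Fbxo32 between the muscles in LRT CTRL the value was 0.0011. Pairing the numbers by a replicate block (exact sign-flip test) gave the same differences of 0.69, 0.52 and 0.0011, with p = 0.0313 for each of the Trim63 values, and the rat block in limma-voom gave 0.68 in LRT. Blocks changed no other call. Whether the numbers mark rats is not stated in the labels. Deviations from the group means correlated between same-numbered plantaris and soleus libraries with a median r of 0.245 (over 0.1 in 22 of 24 pairs, and highest with its own number in 22 of 24), and the consensus correlation was 0.23. The number of genes called also moved by over 1.5 times in places. With 1 muscle fitted alone it was 1207 instead of 2744 for HI in HRT soleus, 1493 instead of 2364 in LRT soleus and 0 instead of 5 for the line difference of the soleus response. That difference gave 31 genes with DESeq2, 11 with at least 10 counts in every library, 9 without RIN and 3 with library totals, which also gave 3019 instead of 1859 for HI in HRT plantaris. The muscle difference gave 738 (LRT) and 110 (HRT) genes with DESeq2, 165 and 1 with any count and 1185 and 150 with the rat block, against 370 and 16, and in HRT 64 without RIN and 28 with the number block. Between the lines, plantaris HI gave 706 genes with DESeq2, 234 with library totals, 236 with any count and 186 with the muscle alone, against 410. Soleus CTRL gave 434, 558 and 99 with DESeq2, totals and the muscle alone, against 246, plantaris CTRL 160 with DESeq2 and 56 with at least 10 counts in every library, against 89, and soleus HI 1322 with the muscle alone, against 2076. The cause of these shifts was not tested.

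With 1 library left out, the genes called ran from 1376 (without HI replicate 1) to 3375 for HI in HRT soleus, from 1261 (without HI replicate 3) to 3257 in LRT soleus, from 3 to 81 (without HRT HI replicate 6) for the line difference of the soleus response, from 139 (without LRT replicate 1) to 342 between the lines in soleus CTRL and from 1194 (without HRT replicate 4) to 2537 in soleus HI. The values of the genes had these ranges. Trim63 gave 0.92 to 1.84 for HI in HRT plantaris, 0.93 to 1.93 between the lines in plantaris HI, -0.007 to 0.17 between the lines in soleus CTRL and 1.82 to 2.31 for the muscle difference in LRT. Fbxo32 gave -0.022 to 0.24 between the lines in soleus HI, 1.60 to 2.02 for the muscle difference in LRT, and -0.29 to 0.12 (LRT) and -0.11 to 0.080 (HRT) between the muscles in CTRL. The r between the genes ran from 0.195 to 0.672 in plantaris CTRL over both lines, and within LRT groups from -0.364 to 0.670 in plantaris CTRL, 0.919 to 0.986 in plantaris HI, 0.798 to 0.963 in soleus CTRL and 0.785 to 0.974 in soleus HI. Between the muscles it ran from 0.788 to 0.926 (Trim63) and 0.652 to 0.858 (Fbxo32) in HI, and from -0.324 to 0.372 for Trim63 in CTRL. At 26.8 M to 36.4 M counts per library and at least 64.0 CPM, these values are limited by the spread between libraries, of which the parts from rats and from library preparation cannot be told apart.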
